A study of Drosophila melanogaster with 6 samples.

Results

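Glutathione S-transferase genes of Drosophila melanogaster were taken as all genes of the deposited table whose symbol starts with Gst followed by a capital letter. The rule gave 35 of the 15656 genes, namely 11 of the delta class (GstD), 14 of the epsilon class (GstE), 3 of the omega class (GstO), 1 of the sigma class (GstS1), 4 of the theta class (GstT) and 2 of the zeta class (GstZ). The omega-class gene se (sepia) carries a symbol of its own and was not a member, and nobo is another symbol of the member GstE14. These genes were compared between control flies, of the genotype Gal80ts; Tub-Gal4/P{CaryP}attP40, and flies overexpressing lncRNA-CR33942 (Gal80ts; Tub>lncRNA-CR33942), with 3 RNA-seq libraries each. All flies were adult males aged 3 to 5 d that carried Tub-Gal4, a driver active in nearly all tissues, and Gal80ts, a temperature-sensitive repressor of Gal4. Rearing was at 18°C, and a shift to 29°C of over 24 h freed the driver. The flies were then given E. coli through the thorax and collected 12 h later. Uninfected flies were not analysed here, so the values show the difference between the genotypes after infection and not the response to infection. The study's methods describe its experimental data in general as coming from independent biological replicates. The labels do not say how many flies made up a library or whether the libraries of a group came from separate cultures. The p-values therefore weigh the difference between the groups against the spread between these libraries, moderated over all genes tested.

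Glutathione S-transferases join the thiol of glutathione, a small peptide that is the main soluble antioxidant of the cell, to reactive or toxic molecules, and the conjugates are then exported. Delta and epsilon enzymes form large families in insects and are best known for handling insecticides, plant toxins and products of oxidation, and several delta genes are targets of the stress regulator CncC. Omega, sigma, theta and zeta enzymes also occur in vertebrates and include enzymes with narrower tasks in pigment, lipid and amino acid metabolism. Immune activation in flies brings reactive oxygen species with it, which is one setting in which these enzymes are studied.

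The libraries held between 16894595 and 19423287 reads, recovered from the deposited values, which are reads per gene scaled by a size factor (here called normalized counts). The overexpressed RNA, listed as pncr016:2R, had 203, 210 and 177 normalized counts in the control libraries and 4452, 4914 and 4544 in the overexpression libraries, so every library matched its label. No marker of the tissues of a male fly was at 0 in all 6 libraries. The summed normalized counts of 7 testis genes lay between 28446 and 30235 in the control and between 26081 and 28252 in the overexpression libraries. Those of 4 accessory gland genes lay between 35968 and 37391 and between 31582 and 34927. Both sums were lower in every overexpression library than in every control library, though no gene of either list passed the test used below. The sums of 6 midgut genes overlapped (80521 to 93249 against 92056 to 99503, with 1 of 6 called lower), as did those of 4 Malpighian tubule genes (4561 to 5066 against 4414 to 4897, with 1 called higher and 1 lower). Those of 5 eye genes were higher in the overexpression libraries (54012 to 54499 against 62679 to 68343), and 4 of the 5 were called higher. The sum of the yolk protein genes Yp1, Yp2 and Yp3 was lower (826 to 864 against 220 to 519), nearly all of it from Yp3, which was called lower. The part of such shifts in the results below was not tested. In whole flies, fewer cells of a type and less RNA per cell cannot be told apart.

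GstD2 and GstD6, both of the delta class, rose in the overexpressing flies, by 1.34 and 1.74 on the log2 scale. GstE3 of the epsilon class and GstT3 of the theta class decreased by 0.36 and 0.29. The other 31 members did not pass the test. The test was limma on log2(normalized count + 1) over the 13196 genes whose mean reached 0.5 FPKM (reads per gene length and library total), and a gene was called at a Benjamini-Hochberg adjusted p under 0.05. All 35 members passed the filter. The 2 members called higher make up 5.71% of the family, beside 3.18% of all genes tested, and the 2 called lower also make up 5.71%, beside 5.24% of all genes. These shares are near the background. The median log2 fold change of the members was -0.045, beside 0.0059 for all genes tested. Above 0 lay 15 members (42.9%, beside 51.3% of all genes tested) and below 0 lay 20 (17 and 18 with scaling to the library total). In 23 of the 35 the change was at most 0.25 in either direction. Some alternatives end these calls. With no intensity trend in limma, none of the 4 members passed, whereas limma voom, edgeR and DESeq2 on the recovered reads called exactly these 4. In the fit with no trend, 10 members had an unadjusted limma p under 0.05. The share of all genes at that threshold was not computed, so no excess can be read from this count.

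**Figure D1:**
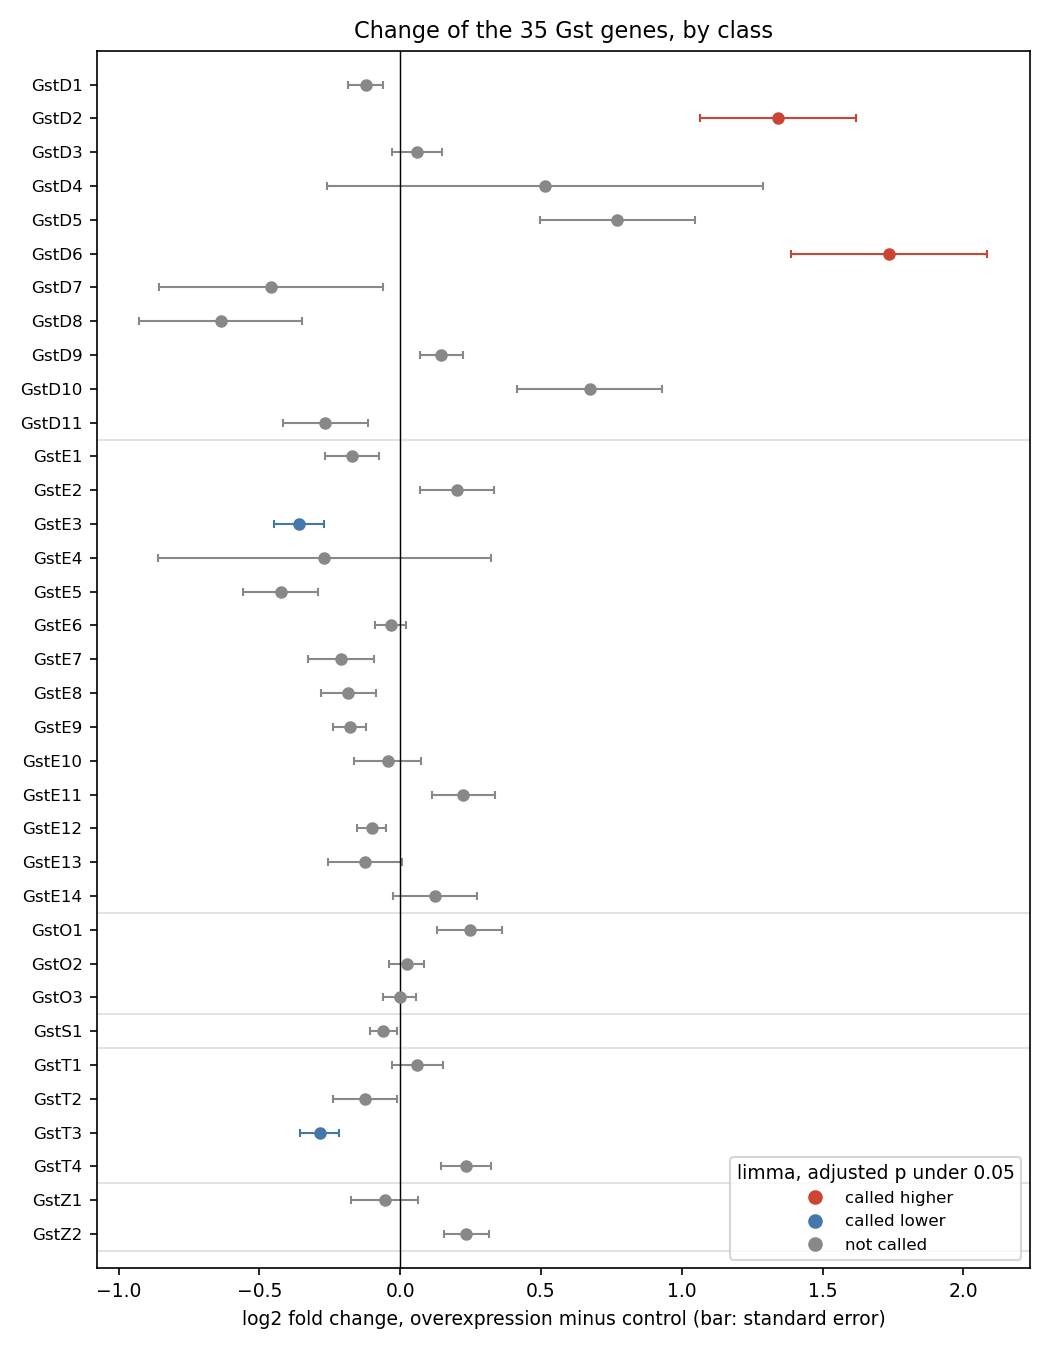
Log2 fold change (overexpression minus control, limma) of each Gst gene on the horizontal axis, with genes on the vertical axis grouped by class and bars for the standard error. GstD2 (1.34) and GstD6 (1.74) stand to the right, GstE3 (-0.36) and GstT3 (-0.29) are called lower, and the members with few reads, such as GstD4 and GstE4, have the widest bars.

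Levels differed among the members by about 3 orders of magnitude on the FPKM scale, which corrects for gene length. GstD1, an enzyme known for breaking down DDT and widely used as a readout of oxidative stress, stood highest with 638 ± 40.5 FPKM (SD over the 6 libraries). It held 30.5% of the summed FPKM of the family. GstS1, which is abundant in flight muscle and acts on products of lipid peroxidation, followed with 290 ± 3.74 FPKM, and GstE12 with 224 ± 9.46. Together with GstE9 (150 ± 10.6) and GstT4 (125 ± 19.2) these were the 5 members above 100 FPKM and made up 68.2% of the family's FPKM. Next came GstO3 (79.2 ± 3.56), GstE3 (75.4 ± 11.7) and GstE6 (73.6 ± 1.55), and GstE3 did not differ from either neighbour beyond its spread. Further down, GstZ2 (9.65 ± 1.10), GstZ1 (9.57 ± 0.658) and GstE13 (9.50 ± 1.09) did not differ beyond theirs. At the bottom, 6 members lay under 3 FPKM, and 5 of these were delta genes. The lowest was GstD4 with 0.648 ± 0.539 FPKM. The delta class held both the highest and the lowest member.

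**Figure D2:**
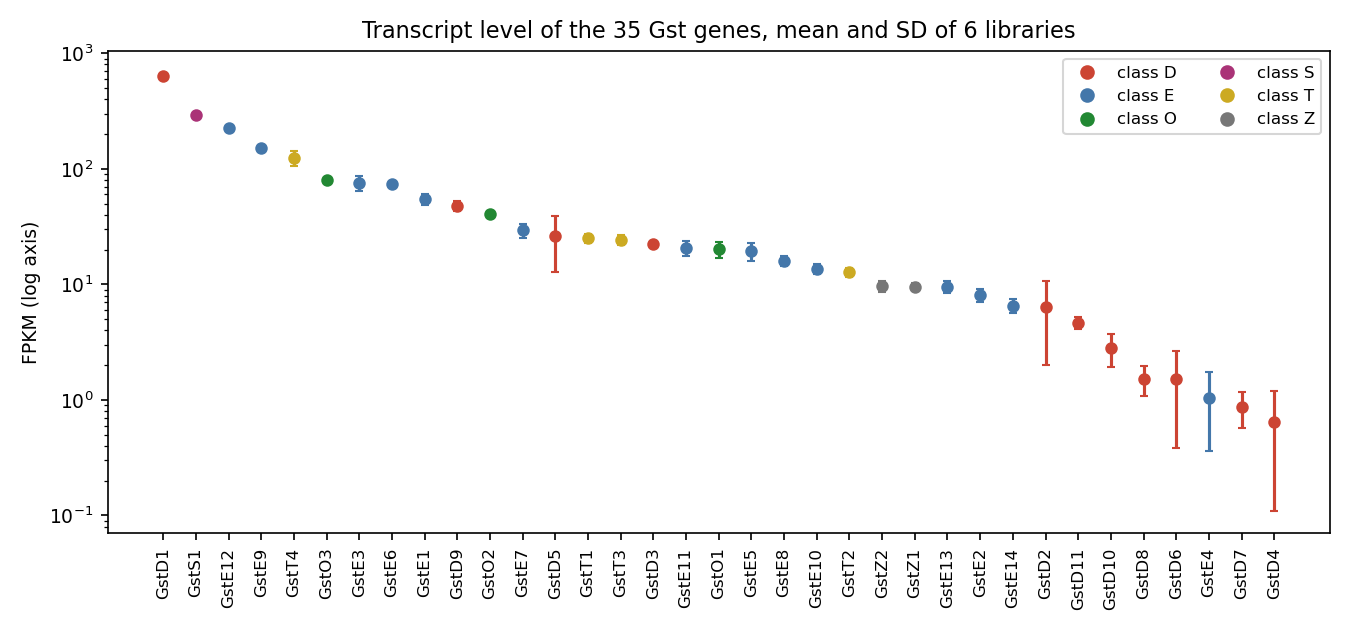
FPKM of each Gst gene on a log axis (vertical), mean and SD of the 6 libraries, with genes ordered from the highest to the lowest and coloured by class. GstD1 stands at 638 FPKM and GstD4 at 0.648, and the widest bars belong to GstD5, GstD2 and genes under 3 FPKM.

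The 35 genes are unevenly spread over the genome. With the dm6 build, whose positions in the table matched release 6 of the annotation for all 35, 17 lie on arm 2R, 13 on 3R, 3 on 3L and 2 on the X chromosome. All 11 GstD genes form 1 stretch on 3R from 12364776 to 12385624 (20.8 kb), and 10 of the 14 GstE genes form another on 2R from 18396638 to 18409835 (13.2 kb). In the annotation, 7 of the 11 GstD and 9 of the 14 GstE genes consist of a single exon, while all 10 members of the other classes have introns. Within the GstD stretch, GstD2 and GstD3 are 363 bases apart, and GstD5 and GstD6 are 555 bases apart. Several members share ground with other genes, most of all GstT2, which overlaps CG12926 on the opposite strand by 223 bases. GstE12 and GstE13 overlap CG3894 and CG18659 by 33 and 6 bases. GstE1 and GstE10 overlap by 127 bases on opposite strands, GstO2 overlaps se by 61, and GstE9 overlaps the other strand of imd, the adaptor gene of the Imd pathway, by 40. The sources used here do not say how the counting treated strand or reads shared by similar neighbours, so counts in such stretches and between close paralogs are uncertain.

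GstD2 lies at 12371971 to 12372704 on the plus strand of 3R, is a single exon and is known as a target of oxidative stress signalling and an enzyme acting on isothiocyanates. It had 39.6, 50.5 and 42.7 normalized counts in control libraries 1, 2 and 3, from 39 to 47 reads, and 183, 71.2 and 111 in overexpression libraries 1, 2 and 3. The groups did not overlap, all overexpression libraries being higher, and the overexpression libraries were far more spread out. The mean was 44.3 ± 5.62 in the control and 122 ± 56.5 in the overexpression libraries (SD, n = 3 each). The log2 fold change was 1.34 (standard error, SE, 0.28, limma adjusted p = 0.00973), or 2.54-fold. Of 16 alternatives, 14 kept the call. It was lost with no intensity trend and without control replicate 1, where the log2 fold change was 1.27 (limma adjusted p = 0.0608). Over all alternatives the adjusted p lay between 4.82e-05, from DESeq2, and 0.125, from limma with no trend.

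GstD6 lies at 12377128 to 12377907 on the same strand and is also a single exon. It had 9.14, 8.60 and 8.53 normalized counts in the control libraries, which rest on 8 or 9 reads each, and 39.7, 19.3 and 40.6 in the overexpression libraries. The groups did not overlap, and overexpression replicate 2 again lay below the other two. The log2 fold change was 1.74 (SE 0.35, limma adjusted p = 0.00827), or 3.33-fold, from 8.76 ± 0.335 to 33.2 ± 12.0 normalized counts (SD, n = 3 each). The call was kept in 14 of 15 alternatives, and no intensity trend ended it (limma adjusted p = 0.0574, the highest of the alternatives, the lowest being 0.00263 from DESeq2). With a filter at a mean of 5 FPKM the gene was not tested.

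The neighbours of these genes were not called. GstD3, which stands between GstD2 and GstD4, had 295 ± 19.8 normalized counts in the control and 307 ± 16.5 in the overexpression libraries, a log2 fold change of 0.060 (SE 0.090, limma adjusted p = 0.758). Within each library, reads of GstD2 per read of GstD3 were 0.144, 0.170 and 0.136 in the controls and 0.597, 0.219 and 0.382 in the overexpression libraries. GstD7 and GstD8, downstream of GstD6, had log2 fold changes of -0.46 and -0.64 that did not pass the test (limma adjusted p = 0.555 and 0.214) and rest on at most 32 reads in any library. For GstD8 every overexpression library lay below every control library (14.2 to 20.3 against 21.3 to 30.3 normalized counts).

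**Figure D3:**
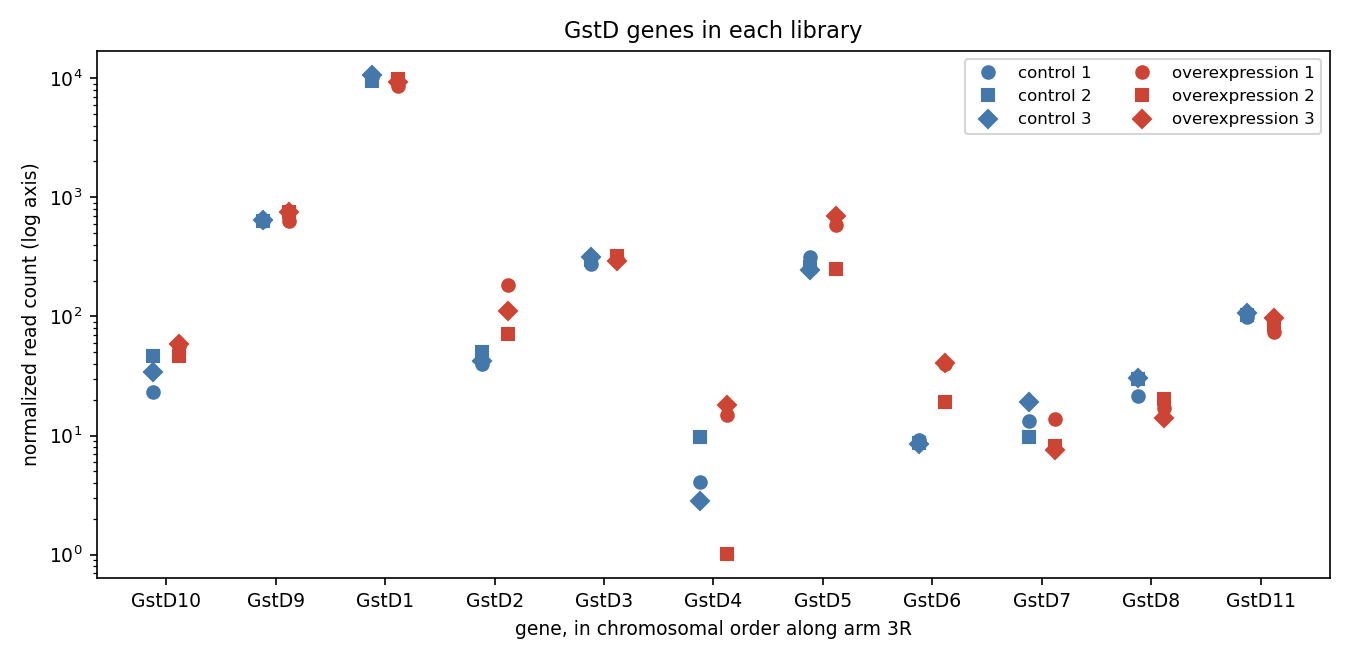
Normalized read count on a log axis (vertical) of each GstD gene in each library, with genes in their order along arm 3R (horizontal); blue marks are control and red marks overexpression libraries. GstD2 and GstD6 are higher in all 3 overexpression libraries, and the square of overexpression replicate 2 is the lowest red mark for GstD2, GstD4, GstD5, GstD6 and GstD10.

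GstD5 and GstD4 lie between the genes above and were named after their values were seen. GstD5 had 318, 260 and 245 normalized counts in the control libraries and 582, 251 and 691 in the overexpression libraries. Overexpression replicates 1 and 3 lay above every control library, and replicate 2 lay among them. The log2 fold change of 0.77 did not pass the test (SE 0.27, limma adjusted p = 0.110), and of the 6 fits that leave out a library, the 1 without overexpression replicate 2 passed, at 1.22 (limma adjusted p = 6.42e-05, beside up to 0.343 in other alternatives). GstD4 had 4.06, 9.67 and 2.84 normalized counts in the control libraries and 14.9, 1.02 and 17.9 in the overexpression libraries, the value of 1.02 being a single read. Its log2 fold change was 0.52 (SE 0.77, limma adjusted p = 0.757).

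Overexpression replicate 2 was the lowest of its group for 10 of the 35 members, among them 5 delta genes, GstD2, GstD4, GstD5, GstD6 and GstD10. Replicate 1 was the lowest for 9 members and replicate 3 for 16. The highest overexpression library exceeded the lowest 2.57-fold for GstD2, 2.75-fold for GstD5 and 2.10-fold for GstD6, while the control libraries stayed within 1.27-fold, 1.30-fold and 1.07-fold. For GstD4, with its few reads, both groups were wide, 17.6-fold in the overexpression and 3.40-fold in the control libraries. In the rest of the stretch the overexpression group was wider for some genes and not for others. GstD7 spanned 1.84-fold in the overexpression and 1.96-fold in the control libraries, GstD8 1.44-fold and 1.42-fold, and GstD10 1.25-fold and 1.98-fold. GstD9 and GstD11 were wider in the overexpression libraries, 1.21-fold and 1.30-fold, against 1.01-fold and 1.08-fold in the control libraries. GstD1 and GstD3 spanned 1.14-fold and 1.11-fold in the overexpression and 1.13-fold and 1.14-fold in the control libraries. The sum of the 6 midgut markers was 99503, 92056 and 95516 normalized counts in overexpression replicates 1, 2 and 3. Of that group, replicate 2 also had the lowest sums of the testis and accessory gland markers (26081 and 31582). It had the highest sums of the eye and Malpighian tubule markers (68343 and 4897). The part of any of these tissues in the spread of the delta genes was not tested. The median SD between libraries of a group was 0.16 on the log2 scale for the members and 0.11 for all genes tested.

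**Figure D4:**
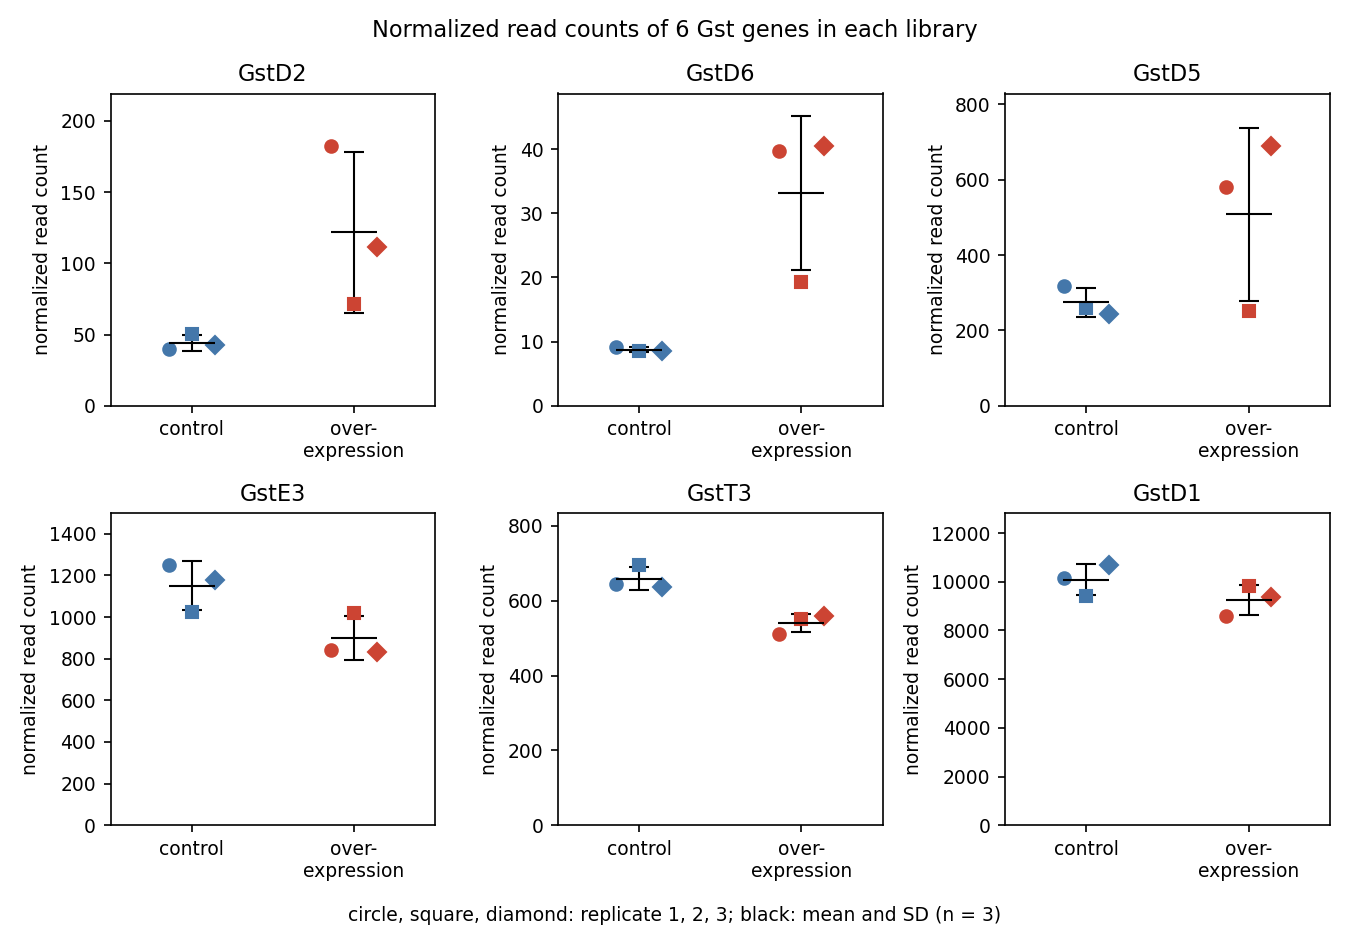
Normalized read counts (vertical) of 6 Gst genes in the control and overexpression libraries (horizontal), with 1 point per library and the mean and SD (n = 3) in black. The groups are apart for GstD2, GstD6 and GstT3, nearly touch for GstE3 (1022 against 1020) and overlap for GstD5 and GstD1.

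The most abundant delta gene was not called. GstD1, at 12367817 to 12369268 on the minus strand of 3R, had 10158, 9417 and 10683 normalized counts in the control libraries and 8605, 9828 and 9368 in the overexpression libraries. The groups overlapped, and the log2 fold change was -0.12 (SE 0.062, limma adjusted p = 0.279). GstD1 held 86.9% of the summed FPKM of the GstD genes in the control and 82.6% in the overexpression libraries. GstD2 went from 0.438% to 1.25% of that sum and GstD6 from 0.0816% to 0.320%. The summed normalized counts of the class overlapped between the groups (10868 to 12128 in the control and 10519 to 11444 in the overexpression libraries).

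GstE3 lies at 18400713 to 18401467 on the plus strand of 2R, inside the GstE stretch. It had 1249, 1022 and 1179 normalized counts in the control libraries and 843, 1020 and 830 in the overexpression libraries. The groups were apart by a margin of 2 normalized counts, between control replicate 2 and overexpression replicate 2. The means were 1150 ± 116 and 898 ± 106 (n = 3, SD), a log2 fold change of -0.36 (SE 0.090, limma adjusted p = 0.0279). The call was kept in 11 of 16 alternatives. It was lost with no intensity trend and without control replicate 1 (-0.30), control replicate 3 (-0.34), overexpression replicate 1 (-0.32) or overexpression replicate 3 (-0.31).

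Of the 14 GstE genes, 11 had log2 fold changes below 0 (10 with scaling to the library total), with a class median of -0.15. The other 3 lay above 0, as did 51.3% of all genes tested. GstE3 was the single call of the class. GstE5 had 276, 301 and 304 normalized counts in the control libraries and 230, 259 and 175 in the overexpression libraries. Its groups did not overlap, but the log2 fold change of -0.42 missed the threshold (SE 0.13, limma adjusted p = 0.0686). Of the 6 fits that leave out a library, the 1 without overexpression replicate 2 passed (-0.55, limma adjusted p = 0.0230, beside up to 0.211 in other alternatives). GstE9 had 1954 to 2068 normalized counts in the overexpression and 2109 to 2434 in the control libraries, a log2 fold change of -0.18 that missed the threshold too (limma adjusted p = 0.0838). It passed without control replicate 2 (-0.23, limma adjusted p = 0.0402, beside up to 0.305 in other alternatives). GstE7, with a log2 fold change of -0.21 (limma adjusted p = 0.327), passed without overexpression replicate 2 (-0.36, limma adjusted p = 0.0345, beside up to 0.711 in other alternatives). GstE12, at 24766718 to 24768172 on the minus strand of 2R, is the most abundant epsilon gene and lies away from the stretch. It had 5757, 5754 and 5988 normalized counts in the control and 5375, 5765 and 5182 in the overexpression libraries, which overlap, and a log2 fold change of -0.10 (SE 0.051, limma adjusted p = 0.273). GstE14, also called nobo, is needed for ecdysteroid synthesis in larvae. It had a log2 fold change of 0.12 (SE 0.15, limma adjusted p = 0.684). The summed normalized counts of the class lay between 12685 and 13865 in the control and between 11458 and 12771 in the overexpression libraries, so the groups overlapped.

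GstT3 lies at 20467455 to 20469796 on the plus strand of the X chromosome. It had 646, 695 and 636 normalized counts in the control libraries and 512, 550 and 560 in the overexpression libraries. The groups did not overlap and each was narrow. The means were 659 ± 31.7 and 541 ± 24.96 (n = 3, SD), a log2 fold change of -0.29 (SE 0.069, limma adjusted p = 0.0231). The call was kept in 11 of 16 alternatives. It was lost with no intensity trend and without control replicate 1 (-0.30), control replicate 2 (-0.25), control replicate 3 (-0.31) or overexpression replicate 1 (-0.25). GstT4, the other X-linked member, at 13404749 to 13409323 on the plus strand, had a log2 fold change of the opposite sign. It had 2490, 2411 and 2583 normalized counts in the control libraries and 2997, 3393 and 2483 in the overexpression libraries, and replicate 3 of the overexpression group lay among the controls. Its log2 fold change of 0.23 did not pass (SE 0.088, limma adjusted p = 0.132), and without overexpression replicate 3 it was 0.35 (limma adjusted p = 0.00671, beside up to 0.357 in other alternatives). Of the 2025 X-linked genes tested, 12.2% were called in either direction, beside 8.42% of all genes tested. The summed normalized counts of roX1 and roX2, markers of male dosage compensation, were 7078 to 7328 in the control and 7780 to 8285 in the overexpression libraries. roX1 was higher and roX2 lower in every overexpression library, and neither passed the test (limma adjusted p = 0.0529 and 0.235). The part of the chromosome or of these 2 RNAs in the theta values was not tested. The autosomal theta genes GstT1 and GstT2, 107 bases apart on 2R, had log2 fold changes of 0.061 and -0.12 (limma adjusted p = 0.753 and 0.582).

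No member of the omega, sigma or zeta class was called, and GstZ2 alone among these 6 genes had an unadjusted p under 0.05. Limma voom, edgeR and DESeq2 called none of them either. GstO3, at 8518885 to 8520295 on the plus strand of 3L, had 1167, 1331 and 1268 normalized counts in the control and 1268, 1268 and 1221 in the overexpression libraries, a log2 fold change of -0.0016 (SE 0.060, limma adjusted p = 0.991). GstS1, at 17093246 to 17099501 on the minus strand of 2R, had 11851, 12106 and 12296 normalized counts in the control and 11719, 11641 and 11434 in the overexpression libraries. Its groups did not overlap, yet the difference was small, with a log2 fold change of -0.059 (SE 0.047, limma adjusted p = 0.508). Zeta-class enzymes act as maleylacetoacetate isomerases in tyrosine breakdown. GstZ2, at 9456815 to 9460652 on the minus strand of 3R, had 371, 350 and 388 normalized counts in the control and 460, 431 and 415 in the overexpression libraries. Every overexpression library was higher, and the log2 fold change of 0.24 missed the threshold (SE 0.079, limma adjusted p = 0.0906). It passed with scaling to the library total (0.28, limma adjusted p = 0.0489, beside up to 0.253 in other alternatives). Its neighbour GstZ1, 268 bases away, had a log2 fold change of -0.056 (limma adjusted p = 0.834).

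Over the family, the groups did not overlap and were higher in the overexpressing flies for 4 members, GstD2, GstD6, GstD10 and GstZ2 (11.4% of the family, beside 12.9% of all genes tested). They did not overlap and were lower for 7 members, GstD8, GstD11, GstE3, GstE5, GstE9, GstS1 and GstT3 (20% of the family, beside 14.4% of all genes tested). With 3 libraries in each group, the smallest p of a two-sided exact permutation test of 1 gene is 0.1. The normalized counts of all 35 members summed to between 42711 and 45678 in the control and between 41490 and 43974 in the overexpression libraries, which overlapped.

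The other genes of glutathione metabolism came from lists of 25 genes, of which 24 outside the family were in the table and tested. None was called higher, beside 3.18% of all genes tested, and 2 were called lower, Zw and Mgstl (8.33% of the 24, beside 5.24% of all genes tested). At an unadjusted limma p under 0.05 there were 2 higher and 3 lower, counts for which the share of all genes was not computed. Limma voom, edgeR and DESeq2 likewise called none higher and 2 lower. The median log2 fold change of the 24 was -0.038. Zw, glucose-6-phosphate dehydrogenase, makes the NADPH that keeps glutathione reduced. It had 1827, 1766 and 1759 normalized counts in the control and 1554, 1415 and 1486 in the overexpression libraries, a log2 fold change of -0.27 (SE 0.053, limma adjusted p = 0.00818), with no overlap of the groups. Mgstl, a membrane-bound glutathione S-transferase of the microsomal type, had 981, 815 and 1010 normalized counts in the control and 751, 767 and 779 in the overexpression libraries. Its log2 fold change was -0.28 (SE 0.078, limma adjusted p = 0.0442). Both genes lie on the X chromosome, as does GstT3. The call of Zw was lost with no intensity trend and without control replicate 1 (-0.25, limma adjusted p = 0.0532, within 0.00406 to 0.1004 over the alternatives). That of Mgstl was kept in 8 of 16 alternatives. It was lost with no intensity trend (limma adjusted p = 0.190, the highest of the alternatives) and without control replicate 1 (-0.24), control replicate 3 (-0.22), overexpression replicate 1 (-0.27), overexpression replicate 2 (-0.28) or overexpression replicate 3 (-0.30), and under 2 other scalings.

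The genes for making glutathione were not called. Gclc, the catalytic subunit of glutamate-cysteine ligase, which takes the first step of glutathione synthesis, had a log2 fold change of -0.018 (SE 0.055, limma adjusted p = 0.889). The modifier subunit Gclm stood at 0.012 (limma adjusted p = 0.938). Among the regulators, cnc, which encodes CncC, stood at -0.040 (limma adjusted p = 0.683) and its partner maf-S at 0.14 (limma adjusted p = 0.195). Keap1, the inhibitor of CncC, had 257, 260 and 242 normalized counts in the control and 283, 368 and 295 in the overexpression libraries. The groups did not overlap, and the log2 fold change of 0.31 did not pass (SE 0.11, limma adjusted p = 0.105). Trxr-1, a thioredoxin reductase that stands in for the glutathione reductase that flies lack, stood at -0.12 (limma adjusted p = 0.245). The conjugate exporter MRP stood at -0.035 (limma adjusted p = 0.730), and se, the omega enzyme of red eye pigment synthesis beside the GstO genes, at -0.21 (limma adjusted p = 0.575).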

How the data were processed

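Poly(A) RNA of infected adult males was sequenced in 3 libraries per genotype. Per the labels, the authors aligned reads with HISAT2 2.0.5 to dm6 and counted them per gene with featureCounts 1.5.0-p3. The deposited values, called FPKM in the name of the table, are a signal: each library's read counts were scaled by a size factor. Undoing this gave whole reads for 100% of values (tolerance 0.01). The table also holds group means, fold changes and p-values of the authors' own comparison, which were not used. The study tested with DESeq2. Here limma 3.58.1 (R 4.3.3, intensity trend, pseudocount 1, no block) was run on log2 values of 13196 genes, since the values are scaled, with voom, edgeR 4.0.16 and DESeq2 1.42.0 on recovered reads as alternatives. Fold changes of genes with few reads are understated on this scale. FPKM came from recovered reads and deposited lengths. Other alternatives were the pseudocount, the filter, the scaling, the trend, a replicate block and leaving out each library. The limma script was tested on simulated data. Replicates of a group differed by more than sampling noise (chi-square per degree of freedom 5.05 to 8.99). Full values are given for members called and for the most abundant member of each class. The rule also covered members not called by this limma fit but called in at least 3 alternatives, and there were none. Other genes named were chosen after their values were seen. The members and lists were chosen with earlier results of these data known. Gene positions came from the table and exons from the release 6 annotation. Other symbols of listed genes were looked up in a RefSeq gene table. Sequences were not used here.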

Additional observations from a re-analysis of the deposited data

How the results depend on the processing

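Among the members' own values under the alternatives, 516 kept direction and call, 13 lost the call, 8 gained one and 16 changed sign. The cause of each change was not tested. With no intensity trend, 94 genes were called higher and 99 lower, and 0 members and 0 of the 24 pathway genes passed in either direction. Scaling to the library total called 632 genes higher, 55.7% of its calls against 37.8% with the deposited scaling, left 1 pathway gene called lower, and moved the median of all genes to 0.046. Quantile normalization also left 1 pathway gene. With a filter at a mean of 5 FPKM, which drops GstD6, 1 member was called higher. With each library left out, genes called higher ranged from 201 to 393 and lower from 328 to 618, members from 1 to 3 and from 0 to 4, and pathway genes called lower from 0 to 2. Without control replicate 1, GstD6 alone of the members was called, and no member was lower either when control replicate 3 or overexpression replicate 1 was left out. Over all genes tested, the same-numbered libraries did not deviate together (correlations from -0.036 to 0.052). The labels do not say whether they share more than a number. Such correlations over all genes cannot exclude a pairing that acts on some genes. A replicate block called 517 genes higher and 846 lower, added GstD5 (limma adjusted p = 0.0161) and GstE5 (limma adjusted p = 0.0394), and changed no other member's call.

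The sign changes were all of genes called under no alternative. With each library left out, GstD4 ranged from -0.065 to 1.55, GstE4 from -0.90 to 0.091, GstE10 from -0.16 to 0.053, GstO2 from -0.027 to 0.066, GstO3 from -0.053 to 0.042 and GstT1 from -0.016 to 0.12. GstO3 was 0.0086 with quantile normalization and 0.039 with scaling to the library total, where GstE6 was 0.0074. The named pathway genes were run through the same alternatives after seeing the data. Gclc, cnc and MRP were 0.020, 0.0033 and 0.016 with quantile normalization and 0.023, 0.00048 and 0.0053 with scaling to the library total. With each library left out, Gclc ranged from -0.046 to 0.037, Gclm from -0.051 to 0.067 and MRP from -0.061 to 4.66e-05. Depth limits GstD4, GstD6, GstD7, GstD8 and GstE4 most, each with under 50 reads in every library.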

Other observations

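GstE4, one of the members with the fewest reads, had 24.4, 20.4 and 5.69 normalized counts in the control libraries and 6.95, 29.5 and 7.55 in the overexpression libraries. The highest library exceeded the lowest 4.29-fold within the controls and 4.24-fold within the overexpression group. GstE3 and GstE5 on either side of it spanned 1.22-fold and 1.10-fold in the controls and 1.23-fold and 1.49-fold in the overexpression libraries. GstE4 rests on 6 to 29 reads in a library, against 185 or more for these neighbours. Its log2 fold change was -0.27 (SE 0.59, limma adjusted p = 0.837). GstD4 was the member with the largest spread between libraries of a group, with an SD of 1.38 on the log2 scale, followed by GstE4 with 1.07.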
